A study of Mus musculus with 4 samples.

Results

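Gastric epithelium defends its surface with secreted and enzymatic products, and 10 genes that encode them were followed here in mice with and without Muc6, which encodes a gel-forming mucin of gastric glands. The genes were taken by symbol as a list of mucosal defence genes (Pigr, Ltf, Lcn2, Reg3b, Reg3g, Lyz1, Lyz2, Duox2, Duoxa2 and Nos2), and all 10 were found among the 34866 gene rows of the deposited table. RNA sequencing was done on the corpus mucosa, the acid-secreting region of the stomach, of Muc6 +/+ mice (wild type, 2 libraries) and of Muc6 -/- mice (knockout, 2 libraries). The mutant line was newly made for the study, which asked how Muc6 relates to gastric carcinogenesis. No source used here gives strain, age, sex or treatment. The labels do not state whether each library is a separate animal, so p-values measure only the variation among these 4 libraries, part or all of which may be technical. Errors after ± are standard errors from the fit, with n = 2 per genotype.

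Mucosal defence works in layers. Plasma cells under the epithelium make dimeric IgA, and the polymeric immunoglobulin receptor, encoded by Pigr, carries it through the epithelial cell and releases it into the lumen. Epithelial cells and phagocytes add proteins that withhold iron (lactoferrin and lipocalin 2), lectins that bind bacterial walls (Reg3b and Reg3g), lysozymes that cut peptidoglycan, and enzymes that make hydrogen peroxide (Duox2 with its maturation factor Duoxa2) or nitric oxide (Nos2).

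Total counts ran from 20327745 to 27946423 per library. Muc6 was at 345 and 313 CPM (counts per 1000000, scaled with TMM factors) in wild type 1 and 2 and at 0 and 0.413 CPM in knockout 1 and 2. Parietal and chief cell markers, of the corpus, were present in all 4 libraries, but their sums were lowest in knockout 1. The 8 genes listed as markers of parietal cells, which secrete acid, summed to 16500 and 17600 CPM for wild type against 1140 and 6500 CPM for knockout. Of these, Tfcp2l1 went the other way, at 333 and 255 CPM for wild type against 459 and 327 CPM for knockout. Gif overlapped, at 631 and 2160 CPM for wild type against 42.5 and 1270 CPM for knockout. It was also on the chief cell list and so counts in both sums. The chief cell markers, of the cells that secrete pepsinogen, summed to 77200 and 181000 CPM for wild type against 2400 and 94700 CPM for knockout. Knockout 1 also stood apart in other ways. Gast, Pdx1 and Nkx6-3, genes of the antrum, the neighbouring gastric region, summed to 191 CPM there and to between 0.365 and 2.97 CPM in the other libraries. The antral list also held Muc6 and Sst, and Sst went the other way. It was at 88.5 and 217 CPM for wild type against 20.7 CPM in knockout 1 and 133 CPM in knockout 2. The 8 squamous forestomach markers summed to 156 CPM in knockout 1 and 13.0 CPM in knockout 2, against 0.847 and 0.26 CPM in wild type, with the defining genes Trp63, Sprr3 and Krtdap at 0 in all 4. The 4 Y-linked genes measured summed to 136 and 121 CPM for wild type against 1.43 and 2.44 CPM for knockout. For every gene below, a difference by genotype therefore cannot be told apart from a difference by sex, which the labels do not give.

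Pigr was far higher in the knockout mucosa, Duox2 and Duoxa2 were lower together, and Ltf, Reg3b and Reg3g were high in 1 knockout library only. Lcn2, Lyz1 and Nos2 were near the limit of detection in all libraries, and Lyz2 differed more within genotypes than between them. Of the 10 genes, 8 passed the filter on low counts and were tested, and Lyz1 and Nos2 did not pass it. With edgeR's quasi-likelihood test over 14067 genes, no member had an adjusted p under 0.05, and neither did any other gene (0%). At an unadjusted p under 0.05 there were 2 members of 8, Pigr and Ltf, both higher in knockout, against 15.9% of all genes tested (9.22% higher and 6.68% lower). Ltf passed the filter through its knockout libraries alone and so had to be higher there, in this and the following counts. DESeq2 called the same 2 members, both higher, and 7.42% of all genes (4.06% higher and 3.36% lower), while limma with voom called 0 genes. In 4 of 8 members the libraries of the genotypes did not overlap, 2 higher and 2 lower in knockout, which is close to the 50.1% of all tested genes without overlap (26.3% higher and 23.8% lower). With knockout 2 left out, edgeR called the same 2 members and 5.8% of all genes (2.39% higher and 3.41% lower).

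**Figure D1:**
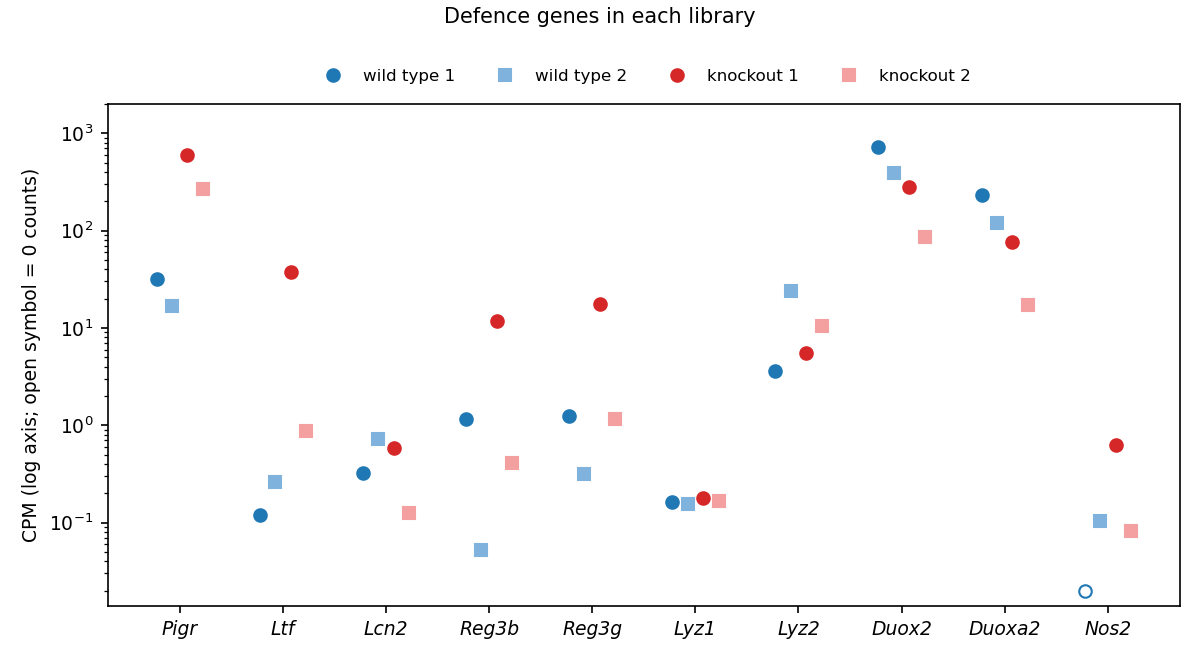
CPM of the 10 defence genes (log axis), with 1 symbol per library and an open symbol for 0 counts. Both knockout libraries lie above both wild-type libraries for Pigr and Ltf and below them for Duox2 and Duoxa2, and knockout 1 is the highest library for Reg3b and Reg3g.

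The order of the genes by level was not the same in the genotypes. Per kilobase of exon, Duoxa2 was the highest member in wild type, at 147 and 75.9 CPM per kilobase, followed by Duox2 at 107 and 58.0. Pigr was at 7.95 and 4.21 CPM per kilobase there. In knockout, Pigr was the highest member, at 148 and 66.4 CPM per kilobase, and Duoxa2 was at 47.9 and 10.8. Duox2 and Duoxa2 were next to each other in the order of every library and closer than their spread, since wild type 1 and 2 alone differed 1.94-fold in the Duoxa2 level. Lyz1, Lcn2 and Nos2 were below 0.3 CPM per kilobase in all 4 libraries, where their order rests on few counts.

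Pigr (ENSMUSG00000026417.13, plus strand of chromosome 1 at 130826684 to 130852249, mm10) had 793 counts in wild type 1, 325 in wild type 2, 13298 in knockout 1 and 6472 in knockout 2, or 32.0, 16.9, 596 and 267 CPM. Both knockout libraries were thus above both wild-type libraries, and wild type 1 and 2 differed 1.89-fold and knockout 1 and 2 differed 2.23-fold. The fitted difference was 17.6-fold (log2 4.14 ± 0.61, edgeR adjusted p = 0.209, DESeq2 adjusted p = 5.6e-13). Without knockout 1, the library high in Gast, Pdx1 and Nkx6-3, it was 3.41 on the log2 scale, and without knockout 2 it was 4.56. Over 13 alternatives the adjusted p of Pigr ran from 5.6e-13 to 0.738, the highest without wild type 1.

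Epithelial marker genes were also measured. Epcam, an epithelial adhesion gene, was at 164 and 145 CPM in the wild-type libraries against 414 and 245 CPM in the knockouts. Set against the summed counts of Epcam, Cdh1, Krt8 and Krt18, which encode epithelial adhesion and keratin proteins, Pigr had 5.65 and 4.25 counts per 1000 in wild type and 58.1 and 52.4 per 1000 in knockout. On that scale too both knockout libraries were above both wild-type libraries. In bulk mucosa a change in the number of cells of a type and a change in RNA per cell cannot be told apart.

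The sequence directly before the Pigr start is shown because Pigr was the member with the smallest p-value (250 bases, chr1:130826434-130826683, plus strand, RefSeq on GRCm38.p6). The capitals mark its single match to the E-box CACGTG, a palindrome that reads alike on both strands and that 6.0% of all 32851 RefSeq promoter windows of this length hold.
Pigr: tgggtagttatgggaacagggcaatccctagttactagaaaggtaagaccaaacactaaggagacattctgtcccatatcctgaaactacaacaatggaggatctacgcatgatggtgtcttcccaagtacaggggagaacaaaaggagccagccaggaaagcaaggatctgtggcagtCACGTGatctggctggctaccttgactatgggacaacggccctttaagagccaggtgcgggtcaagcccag

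Genes of IgA itself overlapped between the genotypes. Igha, the constant region of IgA, was at 14.9 and 261 CPM in the wild-type libraries against 30.2 and 93.6 CPM in the knockouts. Jchain, the peptide that joins IgA into dimers, was at 3.47 and 49.4 CPM in the wild-type libraries against 6.95 and 20.2 CPM in the knockouts. For both, wild type 2 was the highest library and wild type 1 the lowest. Tnfsf13 was higher in both knockout libraries and Ccl28 overlapped. Tnfsf13, which encodes the plasma cell survival factor APRIL, was at 3.15 and 1.56 CPM in the wild-type libraries against 18.0 and 7.97 CPM in the knockouts (log2 fold change 2.46 ± 0.60, edgeR adjusted p = 0.237). Ccl28, a chemokine that draws IgA-producing cells, was at 13.4 and 8.86 CPM against 9.41 and 4.75 CPM. Of the 11 genes of the secretory IgA list, Pigr included, 6 were tested. Of these edgeR called 0 (2 at an unadjusted p under 0.05) and DESeq2 called 2, and 2 were higher and 0 lower without overlap, with a median log2 fold change of -0.81 against 0 over all genes tested. With so few tested genes, this count and those of the lists that follow are descriptions, to be read beside the shares over all genes given above.

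**Figure D2:**
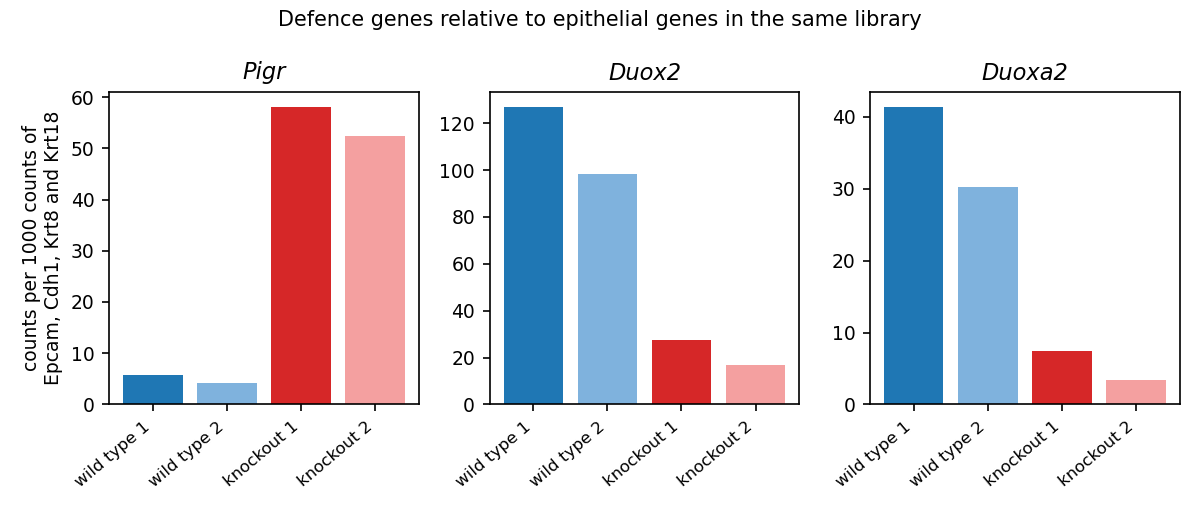
Counts of Pigr, Duox2 and Duoxa2 per 1000 summed counts of Epcam, Cdh1, Krt8 and Krt18 in each library (bars start at 0, 1 bar per library). Pigr stands at 58.1 and 52.4 in knockout against 5.65 and 4.25 in wild type, and Duox2 at 27.3 and 16.7 against 127 and 98.5.

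Duox2, the dual oxidase that releases hydrogen peroxide at the apical surface, and Duoxa2, which it needs to leave the endoplasmic reticulum, are neighbours on chromosome 2 that are read away from each other. In the GENCODE annotation of mm10, Duox2 (ENSMUSG00000068452.7, minus strand, 122279247 to 122298449) and Duoxa2 (ENSMUSG00000027225.7, plus strand, 122298900 to 122302885) are 450 bases apart. The 250 bases before the Duoxa2 start lie inside this gap and are shown because both genes were lower together (chr2:122298650-122298899, plus strand, RefSeq on GRCm38.p6). The capitals mark the 1 match to TATAAA, which was searched on both strands and is held by 12.4% of all promoter windows of this length.
Duoxa2: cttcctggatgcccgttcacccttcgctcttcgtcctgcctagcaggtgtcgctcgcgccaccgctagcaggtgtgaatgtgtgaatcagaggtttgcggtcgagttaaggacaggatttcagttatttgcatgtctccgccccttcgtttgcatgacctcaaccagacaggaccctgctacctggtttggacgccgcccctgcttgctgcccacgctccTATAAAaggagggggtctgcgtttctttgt

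Duox2 had 17875 and 7541 counts in the wild-type libraries against 6239 and 2070 in the knockouts, or 721, 393, 280 and 85.5 CPM. Duoxa2 was counted 5805 and 2320 times for wild type against 1700 and 415 times for knockout, or 234, 121, 76.2 and 17.1 CPM. The libraries came in the same order for both genes, from wild type 1 down to knockout 2, without overlap between the genotypes. There were 3.08 and 3.25 Duox2 counts per Duoxa2 count for wild type, against 3.67 and 4.99 for knockout. The log2 fold change was -1.61 ± 0.70 for Duox2 and -1.93 ± 0.83 for Duoxa2, with edgeR adjusted p-values of 0.370 and 0.368 and DESeq2 adjusted p-values of 0.0877 and 0.0783. The size differed with the library left out: without knockout 1 the log2 fold changes were -2.74 for Duox2 and -3.41 for Duoxa2, and without knockout 2 they were -1.04 and -1.26. Without wild type 1 they were -1.10 and -1.37. Over 13 alternatives the adjusted p ran from 0.0877 to 0.741 for Duox2 and from 0.0783 to 0.740 for Duoxa2. Set against the epithelial counts, Duox2 had 127 and 98.5 counts per 1000 in wild type and 27.3 and 16.7 in knockout, and Duoxa2 41.4 and 30.3 against 7.43 and 3.36.

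The difference was smaller against genes of pit cells, the mucous cells of the gastric surface. Muc5ac, the surface mucin gene, was at 12400 and 7350 CPM in the wild-type libraries against 5780 and 4870 CPM in the knockouts, the library order of Duox2, and Gkn1, which encodes a secreted pit cell protein, stood at 38000 and 25700 CPM against 13900 and 12800 CPM. Neither overlapped between the genotypes, and the same held for Gkn2 (log2 fold change -0.75 ± 0.42). Tff1, also a pit cell gene, did overlap and was nearly level (log2 fold change -0.04 ± 0.45). Its knockout libraries stood at 22800 and 15300 CPM, beside 23700 and 15500 CPM for wild type. The pit cell genes were thus not all lower without overlap. Per 1000 summed counts of Muc5ac, Gkn1, Gkn2 and Tff1, Duox2 had 6.62 and 5.44 counts for wild type, against 4.53 and 1.76 for knockout. Duoxa2 had 2.15 and 1.67 counts on that scale, against 1.23 and 0.353. Both genes were still lower in both knockout libraries, with knockout 1 near wild type 2, and the part of pit cell content was not tested. Pigr had 0.294 and 0.234 counts per 1000 pit cell counts in wild type, against 9.65 and 5.51 in knockout.

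The paralogous pair next to them was expressed far lower. Duoxa1 was at 5.24 and 3.07 CPM in the wild-type libraries against 3.59 and 0.867 CPM in the knockouts, where the genotypes overlapped, and Duox1 had 0 to 3 counts in every library. Duoxa1 lies on the opposite strand and shares 695 bases with Duoxa2, and whether the counting used strand is not given in the sources used here, so their counts may not be fully separate.

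Other genes of the oxidases and of peroxide removal lay on both sides. Noxo1, which organises the epithelial oxidase NOX1, was at 1.73 and 1.35 CPM in the wild-type libraries against 13.3 and 2.77 CPM in the knockouts (log2 fold change 2.37 ± 0.87, edgeR adjusted p = 0.320), while its catalytic partner Nox1 had at most 16 counts in any library. Gpx2, an epithelial peroxidase that removes hydrogen peroxide, was at 73.4 and 54.2 CPM against 262 and 151 CPM (1.69 ± 0.36 on the log2 scale, edgeR adjusted p = 0.226). Cyba, a membrane subunit shared by several oxidases, overlapped between the genotypes. Ncf4, a phagocyte oxidase subunit that passed the filter through wild type alone, was at 0.645 and 1.20 CPM against 0.0897 and 0.289 CPM. Of 16 genes of peroxide and superoxide enzymes, 13 were tested. Of these edgeR called 0 (1 at an unadjusted p under 0.05) and DESeq2 called 1, and 2 were higher and 4 lower without overlap, Duox2 and Duoxa2 among the latter, with a median log2 fold change of -0.60.

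Ltf, which encodes the iron-binding protein lactoferrin, had 3 counts in wild type 1, 5 in wild type 2, 829 in knockout 1 and 21 in knockout 2 (ENSMUSG00000032496.7, plus strand of chromosome 9 at 111019271 to 111042767, mm10). The levels were 0.121, 0.260, 37.2 and 0.867 CPM. Both knockout libraries were above both wild-type libraries, but knockout 1 was 42.9-fold above knockout 2 and held 97.5% of the summed knockout counts. The log2 fold change was 6.64 ± 2.18 (edgeR adjusted p = 0.290, DESeq2 adjusted p = 3.8e-04), and without knockout 1 it was 2.12. Without knockout 2 it was 7.56. Over 12 alternatives the adjusted p of Ltf ran from 3.8e-04 to 0.762, the latter with limma voom. Ltf passed the filter on low counts through its knockout libraries alone and so had to differ.

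Lcn2, which encodes lipocalin 2, a protein that captures bacterial iron carriers, was near the limit of detection (ENSMUSG00000026822.14, minus strand of chromosome 2 at 32384633 to 32388252, mm10). Its counts were 8 and 14 for wild type against 13 and 3 for knockout, with overlap between the genotypes (log2 fold change -0.56 ± 1.05, edgeR adjusted p = 0.842). The counts of S100a8 and S100a9, whose products bind zinc and manganese in neutrophils, were between 1 and 11 in each library. Hamp, which encodes the iron hormone hepcidin, was at 0.565 and 0.573 CPM in the wild-type libraries against 2.29 and 4.83 CPM in the knockouts (2.63 ± 0.61 on the log2 scale, edgeR adjusted p = 0.229). The neutrophil markers as a list summed to between 0.726 and 2.60 CPM, with Elane, Prtn3 and Camp at 0 in all 4 libraries and Mpo at 0 or 1 count. Of 9 genes for metal-withholding proteins 6 were tested, edgeR called 0 (2 at an unadjusted p under 0.05), and DESeq2 called 2, Ltf and Hamp, which were also the 2 higher without overlap, with 0 lower and a median log2 fold change of 0.74.

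Reg3b and Reg3g encode secreted C-type lectins that bind bacteria. They lie 92802 bases apart on chromosome 6, with Reg3d, Reg3a, Reg2 and Reg1 between them. Reg3b (ENSMUSG00000071356.7, plus strand, 78370657 to 78373466) and Reg3g (ENSMUSG00000030017.2, minus strand, 78466269 to 78468872) are close paralogs, and their first-listed GENCODE transcripts are 77.4% identical over 729 aligned positions, with a longest shared run of 35 bases. The 150 bases before each RefSeq start are shown because both genes were high in the same library (GRCm38.p6, chr6:78370735-78370884 on the plus strand for Reg3b and chr6:78468875-78469024 on the minus strand for Reg3g). Capitals mark TATAAA and the palindrome TTCNNNGAA, a STAT-type motif that 7.0% of all windows of 250 bases hold, both searched on both strands. The whole Reg3b stretch lies inside the GENCODE span of the gene, which starts at 78370657, upstream of the RefSeq start.
Reg3b: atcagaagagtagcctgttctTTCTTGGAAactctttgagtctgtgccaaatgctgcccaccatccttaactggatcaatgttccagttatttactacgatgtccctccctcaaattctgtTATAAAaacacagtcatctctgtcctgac
Reg3g: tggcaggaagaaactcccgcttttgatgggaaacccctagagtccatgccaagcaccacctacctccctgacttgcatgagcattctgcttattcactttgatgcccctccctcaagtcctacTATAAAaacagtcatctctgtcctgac
The stretches are 73.3% identical over 146 aligned positions and share the TATAAA match at a like distance from the start, while the TTCNNNGAA match is in the Reg3b stretch and not in the Reg3g stretch.

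Reg3g had 31 and 6 counts in the wild-type libraries against 393 and 28 in the knockouts, or 1.25, 0.313, 17.6 and 1.16 CPM. Reg3b had 29 and 1 counts in the wild-type libraries against 260 and 10 in the knockouts, or 1.17, 0.0521, 11.7 and 0.413 CPM. For both genes knockout 1 was the highest library, wild type 1 was above knockout 2, and wild type 2 was the lowest, so the genotypes overlapped. Knockout 1 held 93.3% of the knockout counts of Reg3g and 96.3% of those of Reg3b. The log2 fold changes were 3.56 ± 1.56 and 3.26 ± 2.02, with edgeR adjusted p-values of 0.372 and 0.507. Without knockout 1 the log2 fold change was 0.52 for Reg3g and -0.59 for Reg3b, so the direction of Reg3b turned. With both rows summed, where a split of reads between them does not matter, the log2 fold change was 3.44 ± 1.70 (edgeR adjusted p = 0.420). It was 0.14 without knockout 1.

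Ltf, Reg3b and Reg3g were thus high in the library where squamous genes and Gast, Pdx1 and Nkx6-3 of the antral list were high. Sst of the antral list was lowest there. The part of antral and squamous tissue in the counts of Ltf, Reg3b and Reg3g was not tested. In knockout 1 Pdx1 was at 59.0 CPM, Nkx6-3 at 122 CPM and Krt13 at 117 CPM, against 2.52, 0.454 and 5.62 CPM in knockout 2. Krt14 and Krt6a of the squamous list differed less between the knockout libraries. They were at 10.7 and 1.17 CPM in knockout 1, at 4.42 and 0.619 CPM in knockout 2 and at 0 in wild type. Other secreted lectins also peaked in knockout 1. Reg1, a regenerating-family lectin, was at 31.5 CPM there and between 0.260 and 2.06 CPM in the other libraries, and Zg16, a goblet cell lectin, was at 9.06 CPM there and between 0.206 and 0.807 CPM elsewhere. Itln1, a lectin for bacterial sugars, was at 1.30 and 1.69 CPM in knockout 1 and 2 against 0.161 and 0.521 CPM in wild type. Reg4 had at most 3 counts. Of 10 secreted lectin genes 6 were tested, edgeR called 0 (0 at an unadjusted p under 0.05), DESeq2 called 1, Reg1, and 2 were higher and 0 lower without overlap with a median log2 fold change of 3.17. Paneth and goblet cell markers of the intestine, where Reg3 lectins are abundant, summed to 909 CPM in knockout 1 and to between 44.6 and 118 CPM in the other libraries, and Clca1 (612 CPM) and Fcgbp (273 CPM) made most of it. In knockout 2 Clca1 was lowest, at 13.7 CPM, while Fcgbp was at 48.3 CPM against 1.05 and 1.09 CPM in wild type. The Paneth cell genes Defa17, Defa24, Mptx2, Ang4 and Mmp7 summed to at most 0.717 CPM in any library, with Defa17 at 0 in all 4. Pancreatic acinar markers, from another organ that makes Reg proteins, summed to 117 CPM in knockout 1 and to between 39.6 and 80.9 CPM elsewhere, with Prss2 at 0 in all 4. Cela1 alone made 116 CPM of the sum in knockout 1, and without it the list was lowest there, at 0.448 CPM against 16.8 to 43.1 CPM in the other libraries.

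**Figure D3:**
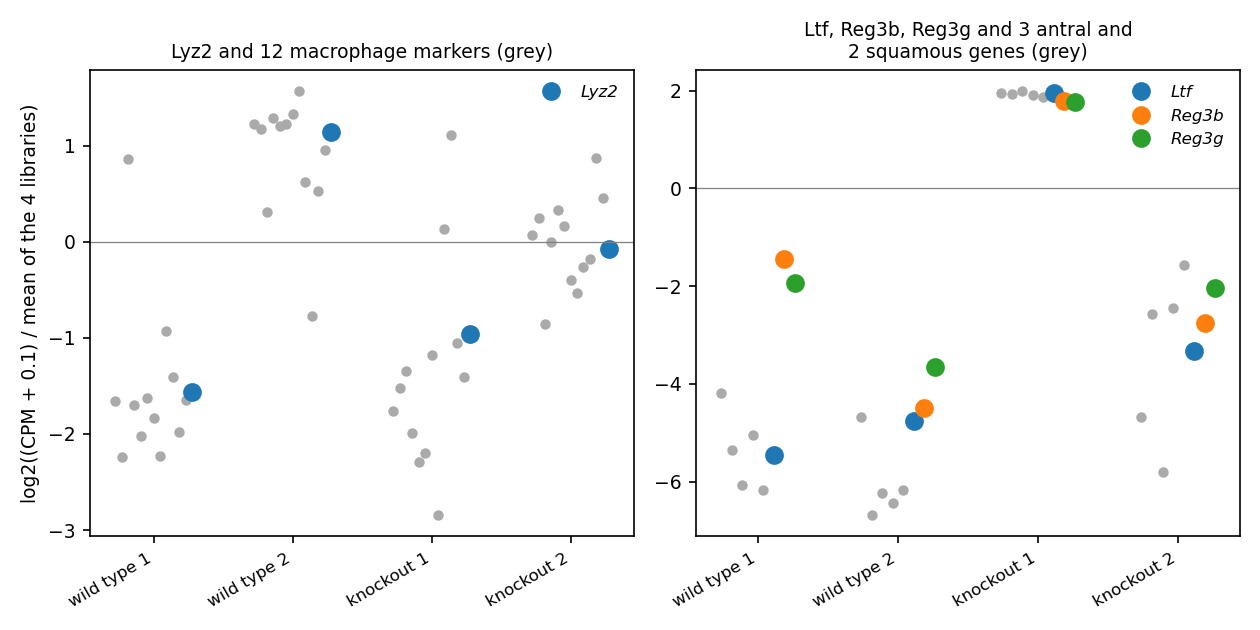
Points show log2 of CPM plus 0.1 over the gene's mean of 4 libraries, left for Lyz2 and the 12 macrophage markers (grey), right for Ltf, Reg3b and Reg3g and the genes Gast, Pdx1, Nkx6-3, Krt13 and Krt4 (grey). Lyz2 and most macrophage markers lie high in wild type 2 and low in wild type 1, Lyz2 lies above most of them in knockout 1, and the right-hand genes all lie highest in knockout 1. Sst, also on the antral list, is not shown and was lowest in knockout 1. Krt14 and Krt6a of the squamous list, also not shown, were at 0 in wild type and above 0 in both knockout libraries.

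**Figure D4:**
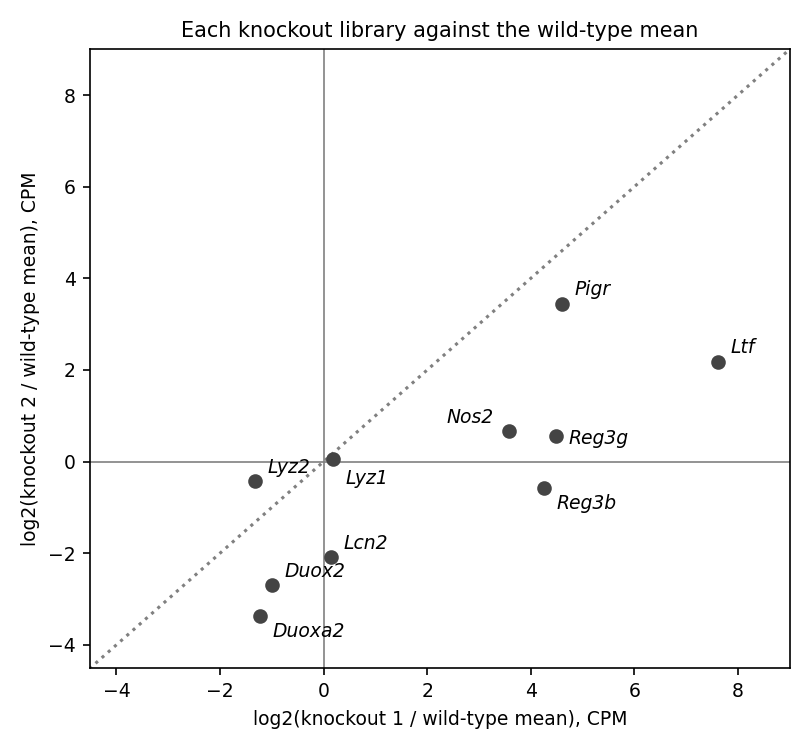
Log2 ratio of each defence gene in knockout 1 (horizontal) and knockout 2 (vertical) to the wild-type mean in CPM, with a dotted line of equal ratios. Pigr (4.61 and 3.45) lies nearest to equal high ratios, while Ltf (7.61 and 2.18), Reg3g (4.49 and 0.57) and Reg3b (4.25 and -0.57) lie far below the line.

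The lysozyme genes Lyz1 (ENSMUSG00000069515.6) and Lyz2 (ENSMUSG00000069516.8) are neighbours on the minus strand of chromosome 10, at 117287797 to 117292868 and 117277331 to 117282321. In mice Lyz1 is the Paneth cell gene and Lyz2 the gene of macrophages and other myeloid cells. Their transcripts are 96.0% identical over 1262 aligned positions, with a longest shared run of 118 bases, so reads can match both. The deposited values show such sharing in knockout 1, where Lyz1 had 4.07 and Lyz2 had 123.9 estimated counts, which together make 128. In the other libraries both values were whole.

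Lyz2 had 90 and 464 counts in the wild-type libraries against 124 and 252 in the knockouts, or 3.63, 24.2, 5.56 and 10.4 CPM. Wild type 2 was 6.66-fold above wild type 1, so the knockout libraries lay between the wild-type libraries (log2 fold change -0.80 ± 0.97, edgeR adjusted p = 0.756). The direction turned to 1.13 without wild type 2. Lyz1 had 4, 3, 4 and 4 counts, at most 0.179 CPM, and was not tested. With both rows summed the log2 fold change was -0.78 ± 0.95, and 1.10 without wild type 2.

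Macrophage genes were measured in the same libraries. The 12 macrophage markers summed to 14.0 and 71.3 CPM for wild type against 21.9 and 36.4 CPM for knockout, and none was at 0 in all libraries. For every 100 macrophage marker counts there were 25.9 and 33.9 Lyz2 counts for wild type, against 25.4 and 28.6 for knockout, while Lyz2 itself ranged from 3.63 to 24.2 CPM. That ratio depended on Cd14, which was at 13.0 CPM in knockout 1 and between 2.18 and 5.24 CPM in the other libraries. With Cd14 left out the ratio was 30.6 and 35.6 for wild type against 62.3 and 33.4 for knockout, so knockout 1 stood highest. Per 100 counts of C1qa, C1qb and C1qc, which encode complement proteins made by macrophages, Lyz2 had 89.1 and 69.5 counts for wild type, against 182 and 64.0 for knockout. Adgre1, which encodes the macrophage antigen F4/80, was at 0.444 and 3.91 CPM in the wild-type libraries against 0.403 and 1.69 CPM in the knockouts, and Csf1r, the macrophage growth factor receptor, at 0.888 and 10.4 CPM against 1.52 and 5.41 CPM. Wild type 2 exceeded wild type 1 in 11 of 12 macrophage markers, Cd68 being the exception, and knockout 2 exceeded knockout 1 in 10 of 12, as for Lyz2, but only 3 of 12 had the library order of Lyz2 throughout. The part of macrophage content in the Lyz2 level was not tested.

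Pglyrp1 encodes a peptidoglycan recognition protein. It was at 9.84 and 14.0 CPM in the wild-type libraries against 118 and 30.4 CPM in the knockouts, without overlap (log2 fold change 2.64 ± 0.74, edgeR adjusted p = 0.255). Of the 9 genes of lysozymes and peptidoglycan proteins, 2 were tested, Lyz2 and Pglyrp1, and 5 had 0 counts in all libraries. edgeR called 0 of them (1 at an unadjusted p under 0.05) and DESeq2 called Pglyrp1.

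Nos2, the inducible nitric oxide synthase of activated macrophages and epithelium, was scarcely detected, with 0 and 2 counts in the wild-type libraries against 14 and 2 in the knockouts (ENSMUSG00000020826.8, plus strand of chromosome 11 at 78920787 to 78960254, mm10). It did not pass the filter. The summed counts, 16 against 2, give a ratio of 7.56 with an exact 95% interval of 1.78 to 67.8 that covers counting error only, and 87.5% of the knockout counts were in knockout 1. Arg1, which competes for the same substrate, had 2 and 7 counts in the wild-type libraries against 54 and 5 in the knockouts. The arginine transporters were lower without overlap: Slc7a1 was at 101 and 77.1 CPM in the wild-type libraries against 63.8 and 58.3 CPM in the knockouts (log2 fold change -0.55 ± 0.19, edgeR adjusted p = 0.301), and Slc7a2 at 7.91 and 12.7 CPM against 1.21 and 4.38 CPM (-1.87 ± 0.72 on the log2 scale, edgeR adjusted p = 0.333). Spr, which helps make the cofactor of nitric oxide synthases, was at 44.5 and 37.7 CPM in the wild-type libraries against 52.5 and 45.8 CPM in the knockouts, a difference of 0.26 ± 0.16 on the log2 scale. Of 12 nitric oxide and arginine genes 10 were tested. Of these edgeR called 0 (1 at an unadjusted p under 0.05) and DESeq2 called 0, and 1 was higher and 2 were lower without overlap, with a median log2 fold change of -0.07.

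Among other antimicrobial proteins several were higher in both knockout libraries. Wfdc12, a whey acidic protein domain inhibitor, was at 0.121 and 0.156 CPM in the wild-type libraries against 7.04 and 8.14 CPM in the knockouts (log2 fold change 5.73 ± 0.45, edgeR adjusted p = 0.144), with knockout libraries close to each other. With 3 counts in each wild-type library it passed the filter through the knockout libraries alone, as did Tlr5, and so had to differ. Wfdc2, of the same domain family, was at 5.08 and 2.97 CPM against 31.4 and 20.5 CPM (2.68 ± 0.39 on the log2 scale, edgeR adjusted p = 0.209). Rnase4, a secreted ribonuclease, was at 154 and 102 CPM against 390 and 333 CPM (1.50 ± 0.28 on the log2 scale, edgeR adjusted p = 0.210). Slpi, a secreted inhibitor of neutrophil elastase, was lower, at 6.74 and 3.80 CPM in the wild-type libraries against 1.12 and 1.57 CPM in the knockouts (-1.97 ± 0.50 on the log2 scale, edgeR adjusted p = 0.241). Of 27 genes on this list 13 were tested, 9 had 0 counts in all libraries (the 5 beta-defensins listed were among the latter), and the median log2 fold change was 1.10. edgeR called 0 and had 6 at an unadjusted p under 0.05 (46.2% against 15.9% of all genes), and DESeq2 called 6 (46.2% against 7.42%). Without overlap, 7 were higher (53.8% against 26.3%) and 2 lower (15.4% against 23.8%), Wfdc12 among the former. Wfdc12 also counts among those of small p and those that DESeq2 called. The list was chosen with earlier results of these data known, so these shares only describe it.

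Receptors that switch on defence genes were measured too. Il22ra1, the epithelial receptor chain for interleukin 22, was at 5.57 and 1.77 CPM in the wild-type libraries against 42.7 and 10.5 CPM in the knockouts (log2 fold change 2.85 ± 0.95, edgeR adjusted p = 0.293). Traf3ip2, the adaptor of the interleukin 17 receptor, was at 16.8 and 16.4 CPM against 27.5 and 21.5 CPM (0.56 ± 0.18 on the log2 scale, edgeR adjusted p = 0.277), and the receptor gene Il17ra had a log2 fold change of 0.32 ± 0.21. Cebpb, a transcription factor of acute-phase genes, was at 10.4 and 8.44 CPM against 18.1 and 16.8 CPM (0.89 ± 0.18 on the log2 scale, edgeR adjusted p = 0.226), while Nfkb2 was at 42.3 and 34.1 CPM against 26.4 and 21.3 CPM (-0.68 ± 0.19 on the log2 scale, edgeR adjusted p = 0.255). Nfkbiz, an inducible cofactor of NF-kappaB, and Myd88, the adaptor of Toll-like receptors, overlapped between the genotypes. Tlr5, the flagellin receptor, had 0 and 3 counts in the wild-type libraries against 18 and 12 in the knockouts. Of 33 receptors and regulators 31 were tested. Of these edgeR called 0 (7 at an unadjusted p under 0.05) and DESeq2 called 1, Il22ra1, and 9 were higher and 7 lower without overlap, with a median of 0.09.

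The cytokines themselves were mostly near 0. Il22 had 0 counts in all 4 libraries, Il17a at most 1 and Il17f at most 3, and 3 of 12 cytokine genes were tested, of which edgeR called 0 (1 at an unadjusted p under 0.05) and DESeq2 called Il33. Il1b was at 0.242 and 1.67 CPM in the wild-type libraries against 5.16 and 0.826 CPM in the knockouts, with overlap. Il33, an alarmin of epithelial nuclei, was at 291 and 162 CPM in the wild-type libraries against 63.6 and 34.6 CPM in the knockouts (log2 fold change -2.21 ± 0.47, edgeR adjusted p = 0.226), and Il18 was at 111 and 87.4 CPM against 90.9 and 66.4 CPM.

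**Figure D5:**
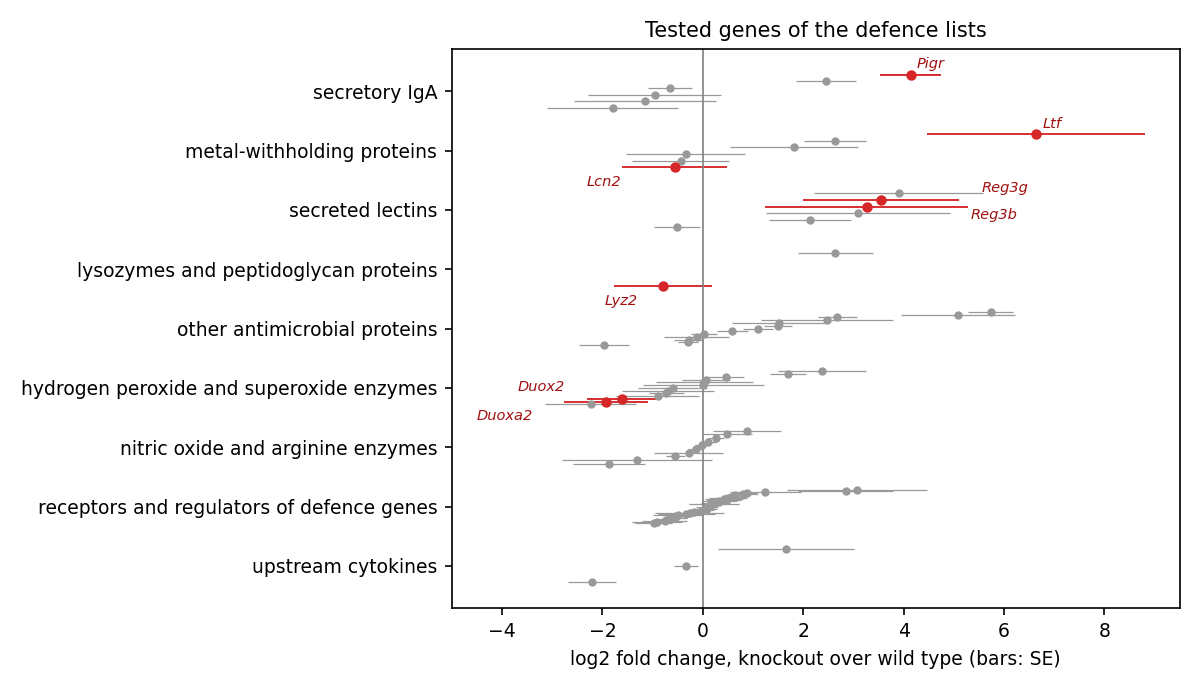
Log2 fold change of knockout over wild type with its SE for the tested genes of the defence lists, with the members in red and the other genes in grey. Pigr (4.14) and Ltf (6.64) lie to the right, Duox2 (-1.61) and Duoxa2 (-1.93) to the left, and the 31 tested receptors and regulators centre near 0.

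Beyond the 10 members, the defence lists held 129 genes, of which 82 were tested and 18 had 0 counts in all libraries. edgeR called 0 of them and DESeq2 called 13, or 15.9% against 7.42% of all genes tested. The libraries of the genotypes did not overlap in 38 of 82, 24 higher and 14 lower in knockout, or 46.3% against 50.1% of all genes tested. At an unadjusted p under 0.05 there were 19 of 82, 13 higher and 6 lower, or 23.2% against 15.9% of all genes. Their median log2 fold change was 0.06. Of these genes, Wfdc12 and Tlr5 passed the filter through knockout alone and Ncf4 through wild type alone, so their directions were fixed. They are included in the counts above, and Wfdc12 is among the genes that DESeq2 called. The lists were chosen with earlier results of these data known, so these shares only describe them.

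The same motifs were searched in all members. Of the 9 members with a RefSeq promoter entry (all but Nos2), Reg3b, Reg3g and Duoxa2 held TATAAA in the 250 bases before the start, Pigr alone held CACGTG, and Reg3b alone held TTCNNNGAA. A loose NF-kappaB pattern, GGG and CC with any 5 bases between them, was held by Pigr, Ltf, Lcn2 and Reg3g, or 4 of 9 members, beside 45.8% of all windows. All were searched on both strands with overlapping matches counted.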

How the data were processed

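Gene expression in corpus mucosa was measured with stranded mRNA libraries, 2 per genotype, per the labels' protocols. The submitters' processing notes name mm10. For the aligner, the counter and its use of strand the answer is not given in the sources used here. The deposited table holds expected counts per gene, with no sign of scaling to a common total. They were rounded before testing, since 35.0% of those above 0 were fractional (tolerance 1e-09). Identifiers without version were matched to GENCODE M21 symbols for 34582 of 34866 rows.

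Counts were fitted with edgeR 4.0.16 in R 4.3.3 (TMM, filterByExpr with a minimum count of 10, robust quasi-likelihood, no covariate), with Benjamini-Hochberg adjustment at 0.05 over all 14067 genes tested. The SE is the log2 fold change over the square root of F. CPM uses TMM-scaled library sizes. An exact permutation test of 2 against 2 has a smallest p of 0.33 and was not used. DESeq2 1.42.0 and limma 3.58.1 were alternatives, besides other factors, filters, a sample-number block and leaving out each library. Intervals of count ratios are exact (Clopper-Pearson) and cover counting error only.

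The members and lists were chosen with earlier results of these data known. Named genes were the members, from each defence list the 3 tested genes of smallest p, and a fixed set. Igha, Zg16, Il22, Il17a, Il17f, single marker genes and genes at 0 were named after their values were seen.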

Additional observations from a re-analysis of the deposited data

How the results depend on the processing

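Of the 8 tested members, Pigr, Ltf, Reg3g, Duox2 and Duoxa2 kept their direction under every alternative that gave a value, and Pigr ranged from 3.41 to 4.68 and Duox2 from -2.74 to -1.04 on the log2 scale. Lcn2 reversed to 0.11 without wild type 2 and to 0.09 without knockout 2, Lyz2 to 1.13 without wild type 2, and Reg3b to -0.59 without knockout 1. With 1 library left out, Lcn2 ranged from -2.09 to 0.11, Lyz2 from -1.59 to 1.13 and Reg3b from -0.59 to 6.71. The filter of 50 counts in 2 libraries left 4 members.

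The number of genes called over the whole table was 0, and it was 9 without a filter, 1044 with DESeq2 and 0 to 851 with 1 library left out, the highest without knockout 2. The number of members called was 0, 2 with DESeq2 and 0 to 2 with 1 library left out. Members without overlap numbered 4, and 5 to 8 with 1 library left out, where a lone library cannot overlap itself. The sum of Lyz1 and Lyz2 ranged from -1.57 to 1.10 with 1 library left out, and the higher value, without wild type 2, reversed it. The sum of Reg3b and Reg3g ranged from 0.14 to 5.39. In fits without 1 library the lone library is assumed to vary like the other genotype.

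With the sample number as a replicate block 0 genes and 0 members were called, and Pigr had a log2 fold change of 4.10 (edgeR adjusted p = 0.0899). The labels do not say that the numbers pair the samples. Deviations of the libraries numbered 1 from their genotype means correlated at 0.528 across 14067 genes, which are not independent replicates. Counts of at most 14 per library limit Lcn2, Lyz1 and Nos2.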
